A study of Mus musculus with 14 samples.

Results

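Interleukin 12, interleukin 18 and interleukin 6 reach T cells through receptors built from a pair of chains each, and the 6 genes of these chains are described here: Il12rb1, Il12rb2, Il18r1, Il18rap, Il6ra and Il6st. They were taken by gene symbol from the 19937 named genes measured on 14 arrays, and each had 1 probe set. The cells were effector CD8+ T cells, sorted on day 6 of infection with a Listeria strain carrying ovalbumin. Donor cells came from fetal liver chimeras on the C57BL/6J strain and had been placed in congenic recipients before infection, and no age of the mice is given. OT-I, a T cell receptor specific for ovalbumin, is named in the labels of every group but Id2KOBimKO. There were 3 arrays of wild-type (WT) cells high for the inhibitory receptor KLRG1 (KLRG1hi), and 4 groups of cells low for it (KLRG1lo): Id2KOBimKO, Id2KO and BimKO with 2 arrays each, and WT with 5. Id2 restrains the DNA-binding E proteins, and Bim, encoded by Bcl2l11, promotes cell death. The labels do not say how the alleles were made, whether the knockouts were restricted to a cell type or whether animals were pooled. The labels do not tie replicates to separate mice, and the p-values therefore reflect only how far these samples spread, which can be technical.

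IL-12 is made by antigen-presenting cells early in infection. Its receptor pairs IL-12Rβ1, which is shared with the IL-23 receptor and docks the kinase Tyk2, with IL-12Rβ2, which docks Jak2 and recruits STAT4. IL-18 is an IL-1 family cytokine: IL-18Rα (Il18r1) binds it, the accessory chain IL-18Rβ (Il18rap) completes the complex, and the signal runs through MyD88 and IRAK kinases. IL-6 binds IL-6Rα (Il6ra), and gp130 (Il6st), which is shared with other cytokines, signals through Jak1 and STAT3. In CD8+ T cells IL-12 is known for favouring KLRG1hi terminal effectors through T-bet, and IL-12 with IL-18 for eliciting interferon gamma without antigen.

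The values are the authors' RMA signal turned into log2 values, and unnamed probe sets, taken as a background, had array medians of 5.01 to 5.39. The spread of an array, the interquartile range of its log2 values, ran from 2.44 to 2.87. Klrg1 itself averaged 11.04 ± 0.50 in the 3 WT KLRG1hi samples, against 6.28 ± 0.29 in the 5 WT KLRG1lo samples (SD). It was 5.24 and 6.82 on the Id2KOBimKO arrays, 5.48 and 5.70 on the Id2KO arrays and 5.95 and 5.85 on the BimKO arrays. The higher Id2KOBimKO array thus lay above every WT KLRG1lo array (highest 6.74). Id2 was 9.74 ± 0.14 in Id2KOBimKO and 9.81 ± 0.10 in Id2KO, against 10.84 ± 0.13 in BimKO (SD, n = 2 each) and 10.93 ± 0.20 (SD, n = 5) in WT KLRG1lo cells. Bcl2l11 averaged 7.80 ± 0.30 in Id2KOBimKO and 7.51 ± 0.21 in BimKO (SD, n = 2 each), against 7.60 ± 0.19 in WT KLRG1lo (SD, n = 5). Where the probe sets of Id2 and Bcl2l11 lie relative to the deleted parts is not known here, and the Bim status of the cells rests on the labels. Xist, transcribed from an inactive X chromosome, measured 4.47 and 4.99 on the Id2KO arrays and at least 8.37 on every other array. Of 8 CD8 T cell markers, 6 were measured, and all 6 were above the array's background on all 14 arrays. No array stood far from the others of WT KLRG1lo for any of the 6 chains.

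The stretch of 250 bases before the annotated start is shown for the 4 chains that differed between the WT populations, since 2 of them were higher and 2 lower in KLRG1hi cells. Sequences are from RefSeq (GRCm38.p6), 5′ to 3′ in the direction of the gene, and capitals mark E-boxes (CANNTG, the same on both strands). This broad motif takes in the sites of E proteins but is not particular to them. The windows are chr6:67376189-67376438 on the minus strand for Il12rb2, chr1:40515112-40515361 on the plus strand for Il18rap, chr3:89913197-89913446 on the minus strand for Il6ra and chr13:112463820-112464069 on the plus strand for Il6st.
Il12rb2: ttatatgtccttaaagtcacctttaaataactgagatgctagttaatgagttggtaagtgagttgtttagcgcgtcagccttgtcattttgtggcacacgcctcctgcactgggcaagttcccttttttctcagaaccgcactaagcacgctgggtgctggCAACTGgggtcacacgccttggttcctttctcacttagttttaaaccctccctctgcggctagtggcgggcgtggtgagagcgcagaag
Il18rap: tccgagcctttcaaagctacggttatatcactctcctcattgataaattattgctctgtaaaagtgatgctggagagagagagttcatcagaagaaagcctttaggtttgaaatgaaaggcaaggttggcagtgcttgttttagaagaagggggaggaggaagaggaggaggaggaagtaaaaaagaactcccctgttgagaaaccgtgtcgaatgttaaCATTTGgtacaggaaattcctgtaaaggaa
Il6ra: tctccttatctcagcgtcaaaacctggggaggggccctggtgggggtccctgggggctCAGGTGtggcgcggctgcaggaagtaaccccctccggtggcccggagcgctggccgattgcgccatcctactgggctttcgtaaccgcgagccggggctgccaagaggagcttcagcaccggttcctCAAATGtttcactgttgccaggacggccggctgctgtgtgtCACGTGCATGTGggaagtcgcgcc
Il6st: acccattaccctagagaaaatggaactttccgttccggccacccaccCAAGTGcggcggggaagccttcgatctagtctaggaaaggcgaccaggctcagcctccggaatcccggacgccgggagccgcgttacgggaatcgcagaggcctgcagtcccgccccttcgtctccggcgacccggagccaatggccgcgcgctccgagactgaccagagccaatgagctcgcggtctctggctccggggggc
The Il6ra window held 4 E-boxes, with first bases at -192, -65, -24 and -18, and the windows of Il12rb2, Il18rap and Il6st held 1 each. At least 1 E-box was found in 66.2% of all 32851 promoter windows of that length, and at least 4 in 3.84%. A STAT motif (TTCNNNGAA, the same on both strands) was found in the Il12rb2 window, with its first base at -123 from the start, and in none of the other 3 windows shown, while 7.0% of all windows held one. Of the windows shown, only that of Il12rb2 held a T-box core (GTGTGA on either strand), with its first base at -80, and 12.3% of all windows held it. Il18r1, which did not pass between the WT populations, has 3 listed starts with overlapping windows among them. Each of its windows held at least 1 E-box, and that of the third start also held 2 STAT motifs, with first bases at -219 and -152. Il12rb1 had no entry. These are matches of letters and do not show binding.

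The WT populations were compared to describe how terminal effector and KLRG1lo cells differ in these receptors. The chain Il12rb2 and the accessory chain Il18rap were higher in KLRG1hi cells, both IL-6 receptor chains were lower, and Il12rb1 and Il18r1 did not pass the test. So 4 of 6 chains passed, 2 higher and 2 lower, where 0.942% of the 14438 genes tested passed (0.679% higher and 0.263% lower). The test was limma on all 14 arrays, two-sided, with a Benjamini-Hochberg adjusted p under 0.05 over all genes tested, and every adjusted p in the text is from it unless a permutation test is named. RNA was taken from whole sorts, so a change in the share of cells with a transcript and a change of RNA per cell cannot be told apart.

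Il12rb2 encodes the chain that recruits STAT4. Its log2 signal was 9.26, 9.63 and 9.32 on the WT KLRG1hi arrays, against 8.40, 8.38, 7.78, 7.93 and 7.55 on the WT KLRG1lo arrays. All KLRG1hi arrays lay above all KLRG1lo arrays, and WT KLRG1lo arrays 1 and 2 were the nearest to them. The difference of 1.40 (SE 0.19, 95% interval 1.00 to 1.80, adjusted p = 0.000862) is a 2.64-fold higher signal, and it passed under all 24 alternative settings run.

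Il18rap was 10.69, 11.13 and 11.47 on the WT KLRG1hi arrays, against 10.11, 10.18, 10.04, 10.39 and 10.46 on the WT KLRG1lo arrays. The groups did not overlap, with WT KLRG1hi array 1 the nearest to the KLRG1lo arrays. The rise of 0.86 (SE 0.18, 95% interval 0.49 to 1.23, adjusted p = 0.0252) is 1.81-fold. It missed the threshold with the replicate number as a block (adjusted p = 0.0624), in a fit on the compared groups only (adjusted p = 0.0721), without WT KLRG1hi replicate 2 (0.152) or 3 (0.0916), and without WT KLRG1lo replicate 1 (0.0587) or 3 (0.0681).

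Il6st, the signalling chain gp130, was 7.08, 7.72 and 7.80 on the WT KLRG1hi arrays, against 8.57, 8.99, 8.35, 8.31 and 8.40 on the WT KLRG1lo arrays. All KLRG1hi arrays were lower. The difference was -0.99 (SE 0.18, 95% interval -1.38 to -0.60, adjusted p = 0.012). On the linear scale the mean signal was 189.8 in WT KLRG1hi and 373.7 in WT KLRG1lo cells. The adjusted p was 0.0538 in a fit on the compared groups only and 0.0652 with the replicate number as a block.

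Il6ra, the IL-6 binding chain, was 7.36, 7.28 and 7.12 on the WT KLRG1hi arrays, against 7.98, 7.92, 8.04, 7.67 and 7.77 on the WT KLRG1lo arrays. The groups did not overlap, and the values within each group lay close together. The difference was -0.62 (SE 0.14, 95% interval -0.92 to -0.33, adjusted p = 0.0387). This call was the least firm of the 4: it held in 10 of 24 alternatives, with differences from -0.73 to -0.56 and adjusted p-values from 0.0086 to 0.182. Replicates without which it was lost were WT KLRG1hi 2 and 3, WT KLRG1lo 1, 2, 3 and 5, and each Id2KO and Id2KOBimKO array.

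The partner chains that did not pass had values that overlapped. Il12rb1 was 7.40, 7.76 and 8.14 on the WT KLRG1hi arrays, against 7.93, 8.02, 7.74, 7.54 and 7.34 on the WT KLRG1lo arrays, a difference of 0.05 (95% interval -0.33 to 0.44). Il18r1 was 8.92, 8.92 and 9.67 on the WT KLRG1hi arrays, against 9.22, 9.0, 8.58, 9.12 and 9.11 on the WT KLRG1lo arrays, a difference of 0.17 (95% interval -0.25 to 0.59). The third KLRG1hi array was the highest of its group for both chains, and these intervals do not exclude changes of up to 0.44 and 0.59. Over all genes tested, the groups did not overlap for 4.18%, and they did not overlap for the 4 of 6 chains named above.

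**Figure D1:**
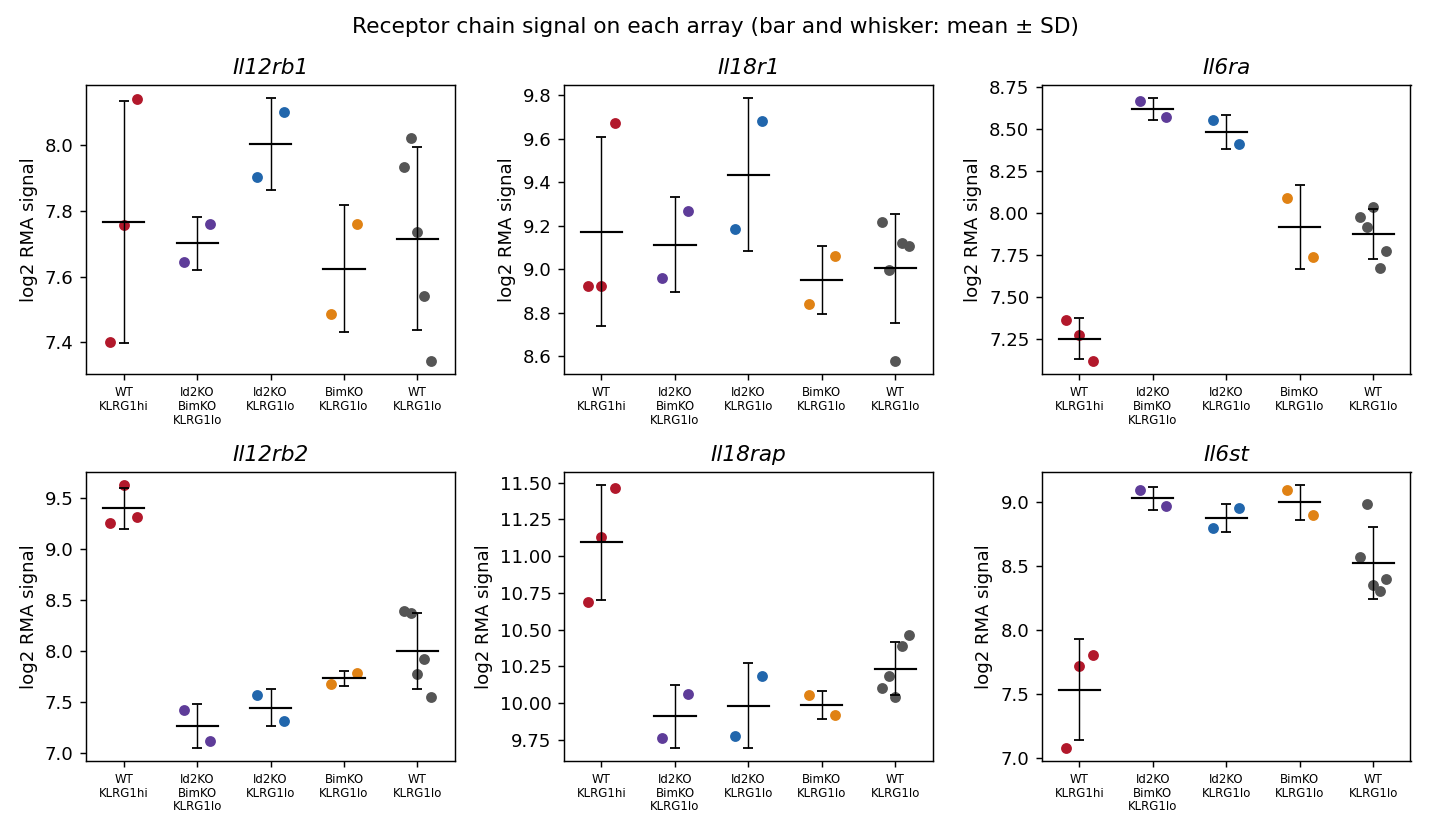
Log2 RMA signal (y axis, own scale in each panel) of the 6 receptor chains on each of 14 arrays in 5 groups; points are arrays, the bar is the group mean and the whisker the SD. Il12rb2 and Il18rap are highest in WT KLRG1hi, Il6ra and Il6st lowest there, and Il6ra is highest on the Id2KOBimKO and Id2KO arrays.

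Arrays could also be parted by background into a low set of 6 and a high set of 8, a split the labels do not name. Within the low set (2 against 2 arrays) the KLRG1hi minus KLRG1lo differences were 1.06 for Il12rb2, 0.77 for Il18rap, -0.63 for Il6ra and -1.38 for Il6st. Within the high set (1 against 3 arrays) they were 1.57, 1.17, -0.71 and -0.55 for the same genes in that order. For these 4 chains the direction in each set was fixed beforehand, since their KLRG1hi and KLRG1lo arrays did not overlap. Only the sizes could vary. Il12rb1 (-0.40 and 0.60) and Il18r1 (-0.18 and 0.74), whose arrays overlapped, changed sign between the sets.

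Markers of other cells were read in the same comparison, and only 2 NK cell markers passed. Monocyte and macrophage markers were 3 positive and 3 negative of 6 tested, and so were CD4 and regulatory T cell markers. The 2 gamma delta T cell markers tested were negative. All 7 measured of 8 B cell markers had negative differences, none past the test, and their summed linear signal was 273.3 to 367.5 on the WT KLRG1hi arrays, against 365.9 to 913.1 on the WT KLRG1lo arrays. Of these 7, 3 were above background on every WT KLRG1hi array and 4 on every WT KLRG1lo array, and Cd79a and Ms4a1 were at or under it on every WT KLRG1hi array. All 5 measured of 8 red cell precursor markers were also negative and did not pass, with sums of 246.9 to 296.4 in WT KLRG1hi and 244.6 to 667.3 in WT KLRG1lo. Summed neutrophil markers were 249.2 to 319.6 in WT KLRG1hi and 250.4 to 630.3 in WT KLRG1lo, with 8 of 8 measured, and all 6 tested were negative and did not pass. Of 7 dendritic cell markers tested, 5 were negative and none passed (H2-Aa at -1.95, H2-Ab1 at -1.06, Itgax at 0.67), while the list summed to 1454.7 to 2517.5 in WT KLRG1hi and 1365.3 to 1578.1 in WT KLRG1lo. Monocyte and macrophage markers, 7 of 8 measured, summed to 557.7 to 629.1 in WT KLRG1hi and 526.4 to 932.7 in WT KLRG1lo, and of the 7, 4 were above background on every WT KLRG1hi array and 5 on every WT KLRG1lo array, with Adgre1 at or under it on every array of both groups. Among the 5 NK cell markers tested, Klrb1c (2.92) and Gzmb (1.5) rose and passed. Fcer1g was at 0.84 (adjusted p = 0.757), Tyrobp at 0.215 (adjusted p = 0.998) and Eomes at -0.084, and none of these passed. The 8 NK cell markers summed to 4383 to 6265 in WT KLRG1hi and 1823 to 2815 in WT KLRG1lo cells, and their list includes Gzmb, which effector T cells also express. Those 5 were above background on every array of both groups, and the other 3, Ncr1, Klra8 and Klri2, were at or under it on every array of both. The part of these cells in the receptor differences was not tested.

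The Id2KO labels were then compared within KLRG1lo cells, to describe the receptors where Id2 is lost with and without Bim. Il6ra was higher on the arrays labelled for Id2 loss in both Bim backgrounds, and it was the single chain past the test in the mean of both effects. It was 8.67 and 8.57 on the Id2KOBimKO arrays, against 8.09 and 7.74 on the BimKO arrays. It was 8.56 and 8.41 on the Id2KO arrays, against 7.98, 7.92, 8.04, 7.67 and 7.77 on the WT KLRG1lo arrays. All 4 arrays labelled for Id2 loss were above all 7 other KLRG1lo arrays, and the share of all genes with this joint separation was not computed. Groups lay apart in this direction for 17.6% of genes in Id2KOBimKO against BimKO and for 14.2% in Id2KO against WT. The mean Id2 effect was 0.66 (SE 0.12, 95% interval 0.39 to 0.92, adjusted p = 0.0349), or 1.58-fold, and 0.180% of genes tested passed there.

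Taken alone, neither background passed for Il6ra: the difference was 0.70 (SE 0.19, adjusted p = 1) in Id2KOBimKO against BimKO and 0.61 (SE 0.16, adjusted p = 0.275) in Id2KO against WT. Of genes tested, 0% and 0.111% passed in these comparisons, and 1.81% and 18.1% had an unadjusted p under 0.05. The unadjusted p of Il6ra was 0.0018 and 0.00136, and it ranked 12th and 66th of 14438 genes by p. The Id2KO arrays also stood apart in Xist, and the part of this in the Il6ra difference was not tested. The Id2KOBimKO and BimKO arrays were all at 9.16 or more in Xist. Under quantile normalization the mean effect was 0.47 and did not pass (adjusted p = 0.539), and it passed in 11 of 24 alternatives. Replicates without which it was lost were each Id2KO and Id2KOBimKO array, BimKO 2, WT KLRG1hi 2 and WT KLRG1lo 1, 4 and 5, at adjusted p-values up to 0.353.

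Il12rb2 had the opposite sign. It was 7.43 and 7.12 on the Id2KOBimKO arrays, against 7.68 and 7.79 on the BimKO arrays. It was 7.58 and 7.32 on the Id2KO arrays, against 8.40, 8.38, 7.78, 7.93 and 7.55 on the WT KLRG1lo arrays. The groups did not overlap in the Bim-deficient background, as for 12.0% of genes in this direction, and WT KLRG1lo array 5 lay just under the higher Id2KO array. The mean Id2 effect was -0.51 (SE 0.17, 95% interval -0.87 to -0.15), which did not pass (unadjusted p = 0.00764, adjusted p = 0.58).

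The other 4 chains did not pass in the mean Id2 effect. The differences were 0.18 for Il12rb1 (95% interval -0.16 to 0.53), 0.30 for Il18r1 (-0.08 to 0.67), -0.17 for Il18rap (-0.50 to 0.17) and 0.19 for Il6st (-0.15 to 0.54). Il18r1 was 8.96 and 9.27 on the Id2KOBimKO arrays, against 8.84 and 9.06 on the BimKO arrays, and 9.19 and 9.68 on the Id2KO arrays, against 8.58 to 9.22 on the WT KLRG1lo arrays. Il18rap was 9.76 and 10.06 on the Id2KOBimKO arrays, against 10.06 and 9.92 on the BimKO arrays, and 9.78 and 10.19 on the Id2KO arrays, against 10.04 to 10.46 on the WT KLRG1lo arrays. The groups overlapped in each of these pairs. Il6st was 9.09 and 8.97 on the Id2KOBimKO arrays and 8.80 and 8.95 on the Id2KO arrays, within or near the ranges of the BimKO (8.90 to 9.09) and WT KLRG1lo arrays (8.31 to 8.99). Il12rb1 was 7.64 and 7.76 on the Id2KOBimKO arrays, against 7.49 and 7.76 on the BimKO arrays, and 7.90 and 8.10 on the Id2KO arrays, against 7.34 to 8.02 on the WT KLRG1lo arrays.

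**Figure D2:**
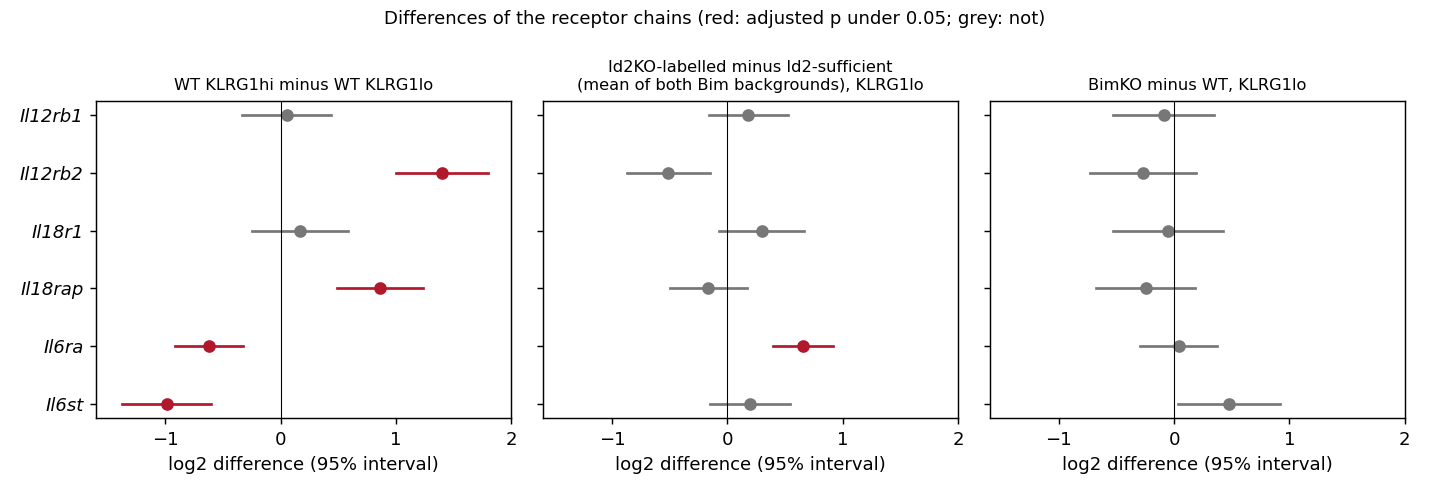
Log2 difference (x axis) with its 95% interval for the 6 chains in 3 comparisons; red marks an adjusted p under 0.05. Il12rb2, Il18rap, Il6ra and Il6st are red between the WT populations, Il6ra is red for the mean Id2 effect, and none is red for BimKO against WT.

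Marker lists were also read between these groups, and no marker passed the test. In the mean Id2 effect 6 of 6 CD8 T cell markers were positive (median 0.30), while 6 of 7 B cell markers (median -0.29), 5 of 6 monocyte and macrophage markers (-0.19), 6 of 7 dendritic cell markers (-0.26), 4 of 6 neutrophil markers (-0.24), 5 of 5 red cell precursor markers (-0.18) and 5 of 5 NK cell markers (-0.44) were negative. In Id2KO against WT the medians of these lists, in the same order, were 0.33, -0.48, -0.29, -0.49, -0.52, -0.46 and -0.50. In Id2KOBimKO against BimKO they were 0.24, -0.07, -0.08, -0.15, 0.004, 0.08 and -0.385. The mean thus rests more on Id2KO against WT. B cell markers summed to 437.7 to 622.5 on the Id2KOBimKO arrays and 337.0 to 392.7 on the Id2KO arrays, against 356.6 to 867.6 on the BimKO and 365.9 to 913.1 on the WT KLRG1lo arrays. Monocyte and macrophage markers summed to 466.3 to 585.2 in Id2KOBimKO and 468.2 to 498.9 in Id2KO, against 465.2 to 664.3 in BimKO and 526.4 to 932.7 in WT KLRG1lo. Of the 7 measured, 5 were above background on every Id2KOBimKO array and 4 on every Id2KO array, against 5 on every BimKO and 5 on every WT KLRG1lo array. Cd14 and Adgre1 were at or under it on every Id2KOBimKO, Id2KO and BimKO array. The part of these cells in the Il6ra difference was not tested.

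The BimKO labels were compared with WT in KLRG1lo cells to describe loss of Bim alone. None of the 6 chains passed, and neither did any of the 14438 genes tested (0%) with limma, while 998 (6.91%) had an unadjusted p under 0.05. Il6st was 9.09 and 8.90 on the BimKO arrays, against 8.57, 8.99, 8.35, 8.31 and 8.40 on the WT KLRG1lo arrays. Only WT KLRG1lo array 2 reached the BimKO range, and the difference was 0.48 (95% interval 0.03 to 0.92, unadjusted p = 0.0379, adjusted p = 0.657). The differences of the other 5 chains lay between -0.27 for Il12rb2 and 0.04 for Il6ra.

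The remaining contrasts among KLRG1lo cells gave no call among the 6 chains. In Id2KOBimKO against WT KLRG1lo, where 0.0623% of genes passed, Il6ra differed by 0.74 (SE 0.16, adjusted p = 0.177), Il6st by 0.51 (SE 0.21) and Il12rb2 by -0.73 (SE 0.22, adjusted p = 0.785). When the spread of each array entered the model, the Il6ra difference was 0.77 and passed (adjusted p = 0.0396). In Id2KOBimKO against Id2KO, where 0.0277% of genes passed, the 6 differences ran from -0.32 for Il18r1 to 0.16 for Il6st. The interaction of the Id2 and Bim labels, which asks whether the Id2 effect differs between Bim backgrounds, passed for 0.0277% of genes and for none of the chains. It was 0.09 for Il6ra (95% interval -0.43 to 0.62) and 0.09 for Il12rb2 (-0.62 to 0.81), so a sizeable difference between backgrounds is not excluded. These contrasts share arrays with the ones above and are not independent of them.

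Placed in order of their means, Il12rb2 levels were 9.40 ± 0.20 (SD, n = 3) in WT KLRG1hi, then 8.01 ± 0.37 (SD, n = 5) in WT KLRG1lo, 7.74 ± 0.08 in BimKO, 7.45 ± 0.18 in Id2KO and 7.27 ± 0.22 in Id2KOBimKO (SD, n = 2 each). A gap between neighbours was set against the sum of both SDs, as a description. For Il12rb2 it was larger below WT KLRG1hi (1.40 against 0.57) and, narrowly, between BimKO and Id2KO (0.29 against 0.26). It was smaller between WT KLRG1lo and BimKO (0.27 against 0.45). Both BimKO arrays belong to the high background set, where the WT KLRG1lo arrays were at 7.78, 7.93 and 7.55. Il6ra ran 8.62 ± 0.07 in Id2KOBimKO, 8.48 ± 0.10 in Id2KO, 7.91 ± 0.25 in BimKO (SD, n = 2 each), 7.88 ± 0.15 (SD, n = 5) in WT KLRG1lo and 7.25 ± 0.12 (SD, n = 3) in WT KLRG1hi. Its gaps exceeded the SDs between Id2KO and BimKO and between WT KLRG1lo and WT KLRG1hi, and the other neighbours did not differ beyond their spread. Il6st had 1 such gap, below the KLRG1lo groups at 8.52 to 9.03, with WT KLRG1hi at 7.53 ± 0.40 (SD, n = 3). Il18rap likewise had 1, between WT KLRG1hi at 11.09 ± 0.39 (SD, n = 3) and the KLRG1lo groups at 9.91 to 10.24. Group means of Il12rb1 (7.62 to 8.0) and Il18r1 (8.95 to 9.43) had no gap larger than the SDs.

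Since the chains of a receptor act as a pair, the difference between partners was taken within each array, where shifts common to an array cancel. It shows unequal change of the partners and not their relative amounts, which probe sets do not give. Over 6 exact permutation tests, two-sided and adjusted together, 4 passed, each at the smallest p possible. The share of other gene pairs that would pass was not computed. Between the WT populations these tests use the values of Il12rb2 and Il18rap that passed above, and are not independent of those calls. The smallest p possible was 0.0179 for the 56 arrangements of KLRG1hi and KLRG1lo arrays and 0.00794 for the 126 arrangements of the Id2 labels within Bim backgrounds.

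Il12rb2 minus Il12rb1 was 1.64 ± 0.40 on the 3 WT KLRG1hi arrays, against 0.29 ± 0.17 on the 5 WT KLRG1lo arrays (SD), a difference of 1.35 (exact permutation p = 0.0179, adjusted p = 0.0268). In Id2KOBimKO the array values were -0.22 and -0.64 and in Id2KO -0.33 and -0.78, against 0.20 and 0.03 in BimKO and 0.04 to 0.47 in WT KLRG1lo. All 4 arrays labelled for Id2 loss were below 0 and the other 7 KLRG1lo arrays above it. The Id2 difference was -0.69 (exact permutation p = 0.00794, adjusted p = 0.0238). The IL-12 receptor partners thus changed unequally in both comparisons, in opposite directions.

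Il18r1 minus Il18rap also differed in both comparisons. It was -1.92 ± 0.25 on the 3 WT KLRG1hi arrays, against -1.23 ± 0.22 on the 5 WT KLRG1lo arrays (SD), a difference of -0.69 (exact permutation p = 0.0179, adjusted p = 0.0268). It was -0.80 and -0.79 on the Id2KOBimKO arrays and -0.59 and -0.50 on the Id2KO arrays, against -1.21 and -0.86 in BimKO and -1.46 to -0.89 in WT KLRG1lo. The Id2 difference was 0.46 (exact permutation p = 0.00794, adjusted p = 0.0238), and the 4 arrays labelled for Id2 loss were above the other 7. The partner difference does not say which chain moved. In the mean Id2 effect Il18r1 was at 0.30 and the accessory chain Il18rap at -0.17. Neither chain passed on its own in limma, which was adjusted over 14438 genes. The partner test was adjusted over only 6 tests, so the 2 outcomes are not on the same footing.

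Il6ra minus Il6st did not pass in either comparison. The difference was 0.37 between the WT populations (exact permutation p = 0.268, adjusted p = 0.268) and 0.46 for the Id2 labels (exact permutation p = 0.0476, adjusted p = 0.0571). Without either Id2KOBimKO array, either BimKO array or WT KLRG1lo replicate 3, the adjusted p for the Id2 labels was 0.0381 to 0.04.

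**Figure D3:**
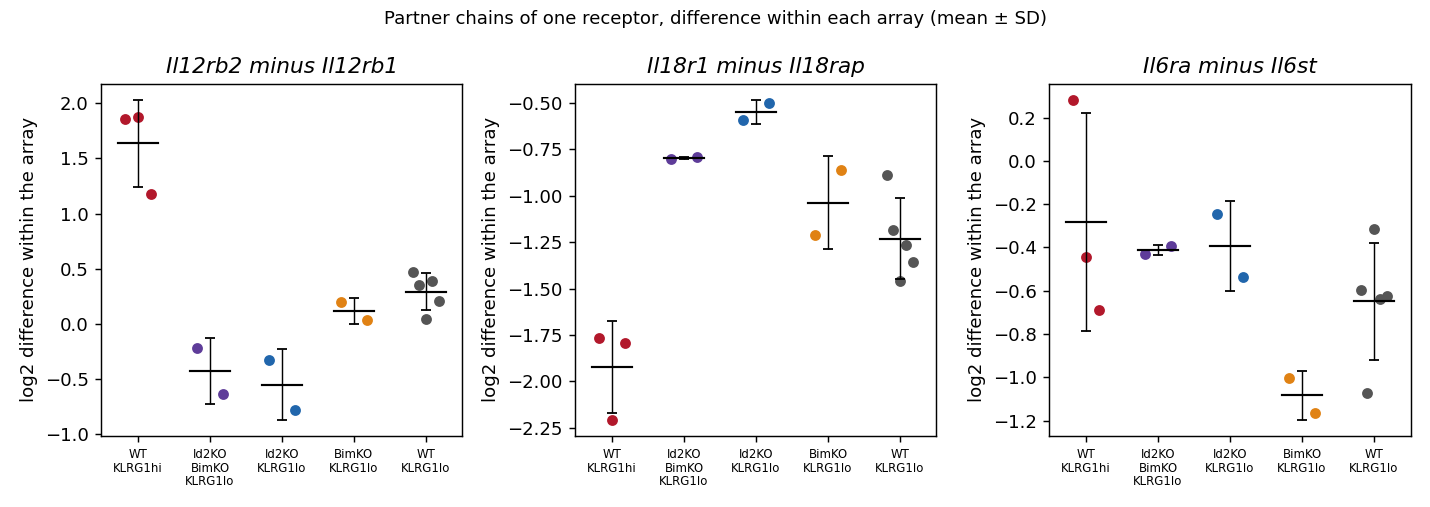
Log2 difference between the partner chains of a receptor within each array (y axis, own scale in each panel), by group; points are arrays, with mean and SD. The Id2KOBimKO and Id2KO arrays lie below 0 for Il12rb2 minus Il12rb1, where all other arrays lie above it, and above the other arrays for Il18r1 minus Il18rap.

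Il18r1 and Il18rap are next to each other on chromosome 1 in the RefSeq order, in a cluster with other IL-1 receptor family genes. Of the 3 nearest genes on each side, Il1rl2 (an IL-36 receptor chain) and the sodium-proton exchangers Slc9a4 and Slc9a2 were measured. Between WT KLRG1hi and WT KLRG1lo they differed by -0.20, 0.003 and 0.04, and none passed (adjusted p = 1 for each).

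Other genes of the 3 pathways were read from lists of ligands, kinases, adaptors, inhibitors, related receptors and response genes. Between WT KLRG1hi and WT KLRG1lo, 2 of 7 IL-12 and IL-18 response genes tested passed as higher and none as lower. Of all genes tested, 0.679% passed as higher and 0.263% as lower. By sign alone, 5 of the 7 were positive and 2 negative. Ifng, encoding interferon gamma, was 6.97 ± 0.25 on the 3 WT KLRG1hi arrays, against 6.11 ± 0.22 on the 5 WT KLRG1lo arrays (SD), a rise of 0.86 (SE 0.16, adjusted p = 0.012). Tbx21, encoding T-bet, was 10.33 ± 0.17 on the 3 WT KLRG1hi arrays, against 9.50 ± 0.31 on the 5 WT KLRG1lo arrays (SD), a rise of 0.83 (SE 0.17, adjusted p = 0.0203). The list's median was 0.11, beside 0.002 for all genes tested.

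None of the other lists had a member past the test in that comparison. Adam17, which sheds IL-6Rα, was at 0.44 (adjusted p = 0.543) and Adam10 at 0.26 (adjusted p = 0.943). Of 5 Janus kinase and STAT genes, Jak1, which gp130 uses, was at 0.56 (adjusted p = 0.235) and Tyk2, the kinase of IL-12Rβ1, at 0.37 (adjusted p = 0.883). Of 12 negative regulators, Pias3, an inhibitor of STAT3, was at 0.36 (adjusted p = 0.48) and Cish at 0.36 (adjusted p = 0.72). Of 7 STAT3 response genes, Bcl6 was at -0.44 (adjusted p = 0.371) and Junb at 0.39 (adjusted p = 0.455). Of 7 genes listed as IL-18 signal genes, Tirap was at 0.28 and Myd88 at 0.24 (adjusted p = 0.775 and 0.968). Tirap is given as a list member only, and no role of it in IL-18 signalling was shown here. All 3 related receptors tested, of 8 measured, were negative. Il27ra, which pairs with gp130 in the IL-27 receptor, was at -0.40 (adjusted p = 0.872), Csf3r at -0.42 (adjusted p = 0.884) and the other at -0.07. Csf3r, which is also in the neutrophil list, was at or under background on every WT KLRG1hi array. The medians were 0.35 for the 2 sheddases, 0.09 for Janus kinases and STATs, 0.02 for negative regulators, -0.06 for STAT3 response genes, 0.02 for IL-18 signal genes and -0.40 for related receptors. Among 9 ligands and soluble binders tested Il11 was at 0.30 (adjusted p = 0.904), among 3 IL-1 receptor family genes Il1r2 at 0.22 (adjusted p = 0.943), and the lists' medians were 0.04 and 0.20.

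In the mean Id2 effect no pathway gene passed. Cish, a STAT-induced inhibitor of cytokine signals, had the smallest unadjusted p. It was 5.79 ± 0.01 in Id2KOBimKO and 5.73 ± 0.41 in Id2KO, against 6.64 ± 0.43 in BimKO (SD, n = 2 each) and 6.19 ± 0.22 (SD, n = 5) in WT KLRG1lo, a mean difference of -0.66 (SE 0.16, adjusted p = 0.18). Adam17, a protease that sheds IL-6Rα from the cell surface, was 9.08 ± 0.03 in Id2KOBimKO and 9.45 ± 0.04 in Id2KO, against 8.59 ± 0.04 in BimKO (SD, n = 2 each) and 8.62 ± 0.29 (SD, n = 5) in WT KLRG1lo, a mean difference of 0.66 (SE 0.16, adjusted p = 0.192). The STAT3 response genes Bcl6 and Maf were at -0.45 and -0.48 (adjusted p = 0.515 and 0.529), and the phosphatase gene Ptpn6 at 0.46 (adjusted p = 0.62). Ifng and Tbx21, higher in KLRG1hi cells, had group means of 5.97 to 6.11 and 9.35 to 9.52 over the 4 KLRG1lo groups. List medians were 0.43 for sheddases, 0.32 for the IL-1 receptor family, 0.18 for Janus kinases and STATs, 0.12 for STAT3 response genes, 0.11 for negative regulators and 0.10 for IL-18 signal genes. They were -0.002 for IL-12 and IL-18 response genes, -0.05 for ligands and -0.06 for related receptors, beside 0.02 for all genes tested.

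**Figure D4:**
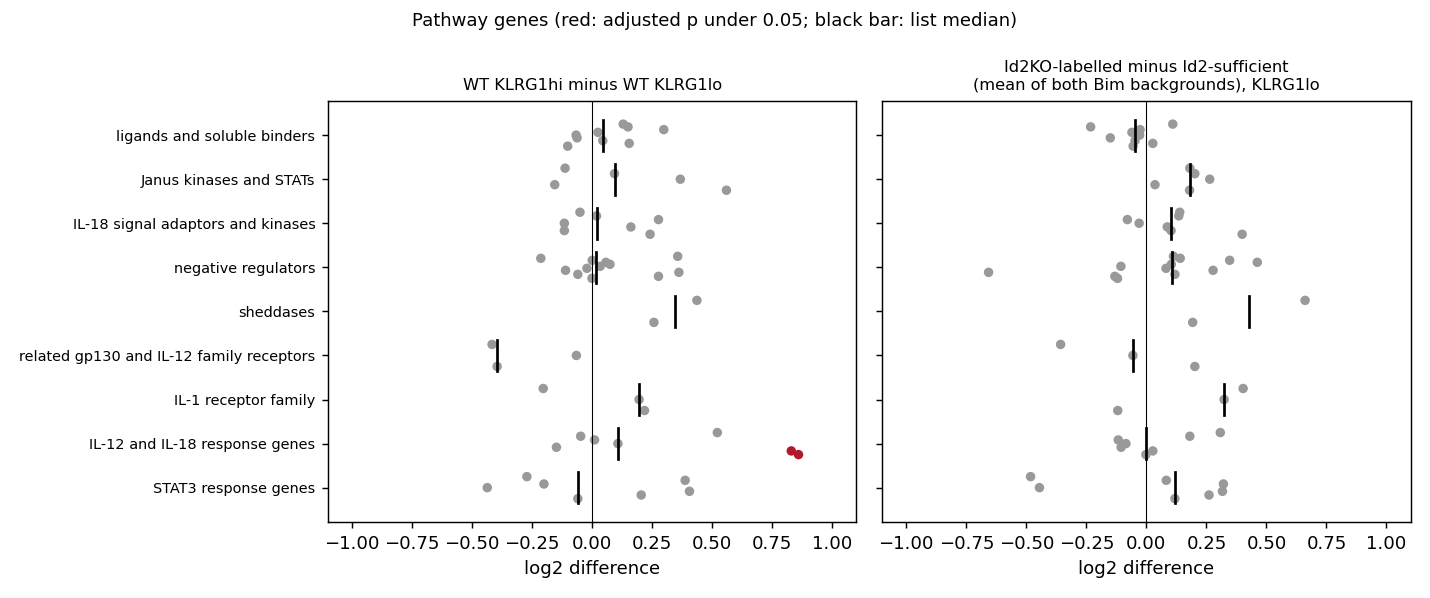
Log2 difference (x axis) of each tested pathway gene, by list (rows), for WT KLRG1hi minus WT KLRG1lo on the left and the mean Id2 effect on the right; black bars are list medians and red marks an adjusted p under 0.05. Ifng and Tbx21 are the red points, and none is red on the right.

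Genes whose log2 values ran most like each chain over the 14 arrays were listed by Pearson's r as a description, since the arrays share their groups and their spread. Il12rb2 ran with Stard10 (0.968), Gzmb, which encodes granzyme B (0.967), and the histone gene H1f5 (0.960). Il18rap ran with the transcription factor gene Zeb2 (0.959), Insl6 (0.957) and the kinetochore gene Nuf2 (0.953). Il6ra ran with the actin crosslinker gene Actn1 (0.954), Spint2 (0.931) and the chemokine receptor gene Cxcr5 (0.927). Il6st ran with the adhesion molecule gene Pecam1 (0.975), the oxysterol receptor gene Gpr183 (0.968) and Tsr1 (0.968). Il12rb1 ran with Clec16a (0.915), Zbtb22 (0.903) and Cnot11 (0.901), and Il18r1 with the nuclease gene Dffb (0.904), Fip1l1 (0.892) and Agtrap (0.878).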

How the data were processed

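RNA of 14 sorts was extracted with TRIzol, amplified and hybridised to 1 array each, per the labels' protocols. The deposited values are linear RMA intensity for 34760 probe sets, and per the submitters' processing notes the authors used RMA and the build mm9. Scanner files were not used, no further step of the authors is named in the labels, and the number of arrays limits the precision. Log2 was taken without an offset. Of the probe sets, 21640 had 1 gene name, 1321 several and 11799 none, and 21553 were found in RefSeq (GRCm38.p6) by Entrez number. The brightest probe set stood for each of 19937 genes, and the 14438 genes that exceeded the 40th percentile on 2 or more arrays were tested. Several genes of the pathway and marker lists had no probe set with a single gene name and were not analysed here.

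Means of 5 groups were fitted with limma 3.58.1 (R 4.3.3), with 9 residual and 7.99 prior degrees of freedom. Partner differences and promoter matches were computed with Python 3.11.15. The limma fit was tested on simulated data. The members, gene lists and tests were chosen with earlier results of these data known. Genes named are the 6 chains, pathway genes that passed or had the smallest p of their list (at most 2), the 3 genes most like each chain (predicted and clone names passed over), the 3 genes on each side of Il18r1 and Il18rap, and Klrg1, Id2 and Xist as checks of labels. Bcl2l11 and single marker genes were named outside that rule, after their values were seen.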

Additional observations from a re-analysis of the deposited data

How the results depend on the processing

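Between WT KLRG1hi and WT KLRG1lo, 4 chains passed, and 1 chain (Il12rb2) passed with the replicate block and 1 in a fit on the compared groups only. Leaving out 1 array gave 2 to 4. In the mean Id2 effect 1 chain (Il6ra) passed, and 0 with quantile normalization, with a robust fit with a variance trend, with the replicate block and with the background set as a block, which was chosen after seeing the data. Leaving out 1 array gave 0 to 1. In Id2KOBimKO against WT 0 chains passed, and 1 with the array spread as a covariate. Over 24 alternatives Il12rb2 passed in 24, Il6st in 22, Il18rap in 18 and Il6ra in 10 between the WT populations, and Il6ra in 11 in the mean Id2 effect. No chain that passed changed its direction in any of them. Leaving out 1 array could not have changed it, since the compared groups did not overlap for these chains. Without 1 array, Il12rb2 minus Il12rb1 differed by 1.227 to 1.576 and Il18r1 minus Il18rap by -0.767 to -0.546 between the WT populations. Without any 1 KLRG1hi array both had an adjusted p of 0.0571, a loss set by the design, since 2 against 5 arrays cannot give an unadjusted exact permutation p below 0.0476. Il6ra minus Il6st differed by 0.391 to 0.538 for the Id2 labels. Over all genes, 136 passed between the WT populations, against 42 with the replicate block and 376 with the array spread. In the mean Id2 effect 26 passed, with a range of 8 to 52. Id2KO against WT gave 16, with a range of 4 to 39, and Id2KOBimKO against WT gave 9, with a range of 0 to 24. The replicate numbers were not taken as pairs: correlations of same-numbered deviations ran from -0.524 to 0.410. Each chain had 1 probe set, so averaging probe sets could not change its values. The cause of the other lost calls was not tested.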
